A study of Mus musculus with 23 samples.

Results

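Unwounded ear pinnae of Rhbdf2cub/cub mice, called cub here, were compared with unwounded ear pinnae of Rhbdf2+/+ mice, called wild type. The samples were chosen by their labels, as those at 0 h with a control treatment, and these were 6 of the 23 arrays in the series. Every gene with a single symbol on the array was compared, 19938 genes in all. The rest of the series holds ear tissue taken after a hole was punched through the pinna.

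The cub group was 3 mice of the strain B6.Cg-Rhbdf2cub/J, and the wild-type group was 3 mice of the strain C57BL/6J. All were 4 weeks old, and the design text of the series gives female mice. The labels call the samples biological replicates, and they do not say whether the wild-type mice were littermates of the cub mice. No hole or biopsy size was recorded for 0 h, so the piece of ear that was taken is not known. Each sample is a whole piece of pinna, in which skin, cartilage, muscle, fat and vessels are mixed. A gene that is higher in such a bulk sample may come from more cells of a type or from more RNA per cell, and these cannot be told apart.

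Rhbdf2 encodes iRhom2, an inactive member of the rhomboid protease family that binds the metalloprotease ADAM17 and lets it mature and reach the cell surface. ADAM17 sheds ligands of the EGF receptor, among them amphiregulin, TGF-alpha, epiregulin, betacellulin and epigen, and it also sheds tumour necrosis factor. The cub allele, short for curly bare, is a spontaneous deletion in the part of Rhbdf2 that encodes the cytoplasmic amino terminus, and homozygous mice have a sparse coat. In skin, EGF receptor signalling acts on the basal keratinocytes that divide at the bottom of the epidermis, and on their passage through the suprabasal layers to the cornified envelope at the surface.

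Values are log2 RMA values, so 1 unit is a 2-fold change of the signal. Differences are cub minus wild type with their standard error, and levels are given for replicates 1, 2 and 3 of each group in that order. The levels ran from 2.92 to 13.84 over the series, and the medians of the 6 arrays lay between 6.39 and 6.42. A difference was called where limma's test gave an adjusted p under 0.05, with Benjamini-Hochberg adjustment over the 19938 genes. An exact permutation test of 3 arrays against 3 cannot go below 0.1, so the test leans on the spread shared by all 23 arrays.

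The tissue markers fitted an ear pinna in both groups. Keratinocyte genes were near the top of the scale, with Krt5 between 12.96 and 13.01 in cub and between 12.95 and 12.98 in wild type. Skeletal muscle actin Acta1 lay between 12.33 and 12.43 in cub and between 12.04 and 12.28 in wild type, and the cartilage proteoglycan gene Acan between 9.32 and 9.52 in cub and between 9.47 and 9.98 in wild type. Cub replicate 2 stood apart. Its mean distance to the other cub arrays was 0.17, against 0.142 to 0.157 for the other 5 arrays and their groups, and in 14 genes it lay more than 1 log2 unit from both other cub arrays, against 2 to 5 genes for each other array. Its mean level of 15 adipocyte genes was 9.41, against 8.39 and 8.80 in cub replicates 1 and 3 and 8.38 to 8.49 in wild type. Results are therefore given without this array as well where it decides them.

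The genotypes differed in 1047 genes, which is 5.25% of those tested. Of these, 663 genes (3.33% of all) were higher in cub and 384 genes (1.93%) were lower. Most differences were small, with a median size of 0.35 among the called genes, and 21 of the higher and 10 of the lower genes differed at least 2-fold. The arrays of the groups did not overlap for 1031 of the called genes, and they did not overlap for 22.8% of all genes tested. After quantile normalization over the tested genes the split was 787 higher and 682 lower. The number of calls rested on single arrays: it was 322 without cub replicate 2, 392 without wild-type replicate 2 and 576 without wild-type replicate 3. There were 250 genes that stayed called with each array left out in turn, 167 of them higher and 83 lower in cub. Of the 935 tested genes in the gene lists used below, 16.7% were called, against 5.25% of all genes. The lists were written with earlier results of these data known, so a share above 5.25% in a list is not a test of that list. Genes named below kept their call with each array left out unless the text says otherwise. Some of them lost it under other alternatives, which are described at the end.

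The gene with the largest rise was Pdk4, which encodes the kinase that switches off pyruvate dehydrogenase and so spares glucose. Pdk4 was at 9.83, 10.67 and 9.66 in cub ears, against 7.29, 7.37 and 7.41 in wild-type ears. All cub arrays were far above all wild-type arrays, a 6.48-fold difference of 2.70 ± 0.22 on the log2 scale (limma, adjusted p = 4.19e-07). Scd3, a stearoyl-CoA desaturase of sebaceous glands, was at 10.39, 9.89 and 10.74 in cub ears, against 8.56, 7.31 and 7.70 in wild-type ears. It was 5.59-fold higher in cub, by 2.48 ± 0.36 (limma, adjusted p = 0.000348), although the wild-type arrays spread over more than 1 log2 unit. Krt77, a type II keratin, was at 12.63, 12.92 and 12.68 in cub ears, against 11.41, 10.22 and 10.98 in wild-type ears. The groups did not overlap, and the difference was 1.87 ± 0.20 (limma, adjusted p = 1.27e-05). These values use the spread shared by all 23 arrays. With only the 6 arrays at 0 h in the fit, limma's adjusted p was 0.00135 for Pdk4, 0.0112 for Scd3 and 0.013 for Krt77.

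Other genes at least 2-fold higher in cub were the suprabasal keratinocyte genes Krt1 and Sprr4, and the EGF receptor ligands Btc and, at 2.00-fold, Epgn. Also among them were the interleukin 12 receptor chain Il12rb2, the class I related genes H2-Q4 and Mill1, the T cell ligand gene Sectm1a and the Fc receptor-like gene Fcrls. Further such genes were the wax ester synthase Awat2, the mitochondrial carrier Ucp3, the fatty acid binding protein Fabp3, the fast muscle myosin Myh2 and Mrgprb3, a receptor of the Mas-related family. Ifi205, an interferon-inducible gene, was 1.13 ± 0.27 higher (limma, adjusted p = 0.0163), and its call was lost without cub replicate 2 (adjusted p = 0.127), wild-type replicate 1 (0.0569) or wild-type replicate 2 (0.058). Retnla, which encodes a resistin-like protein made by alternatively activated macrophages, was 1.58 ± 0.32 higher (limma, adjusted p = 0.00635), and its call was lost without cub replicate 2 (adjusted p = 0.0546). Macrod2 was 1.15 ± 0.17 higher in the row used, but its other 5 rows differed by -0.34 to 0.03, and over the mean of its rows it was not called (adjusted p = 0.187).

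**Figure D1:**
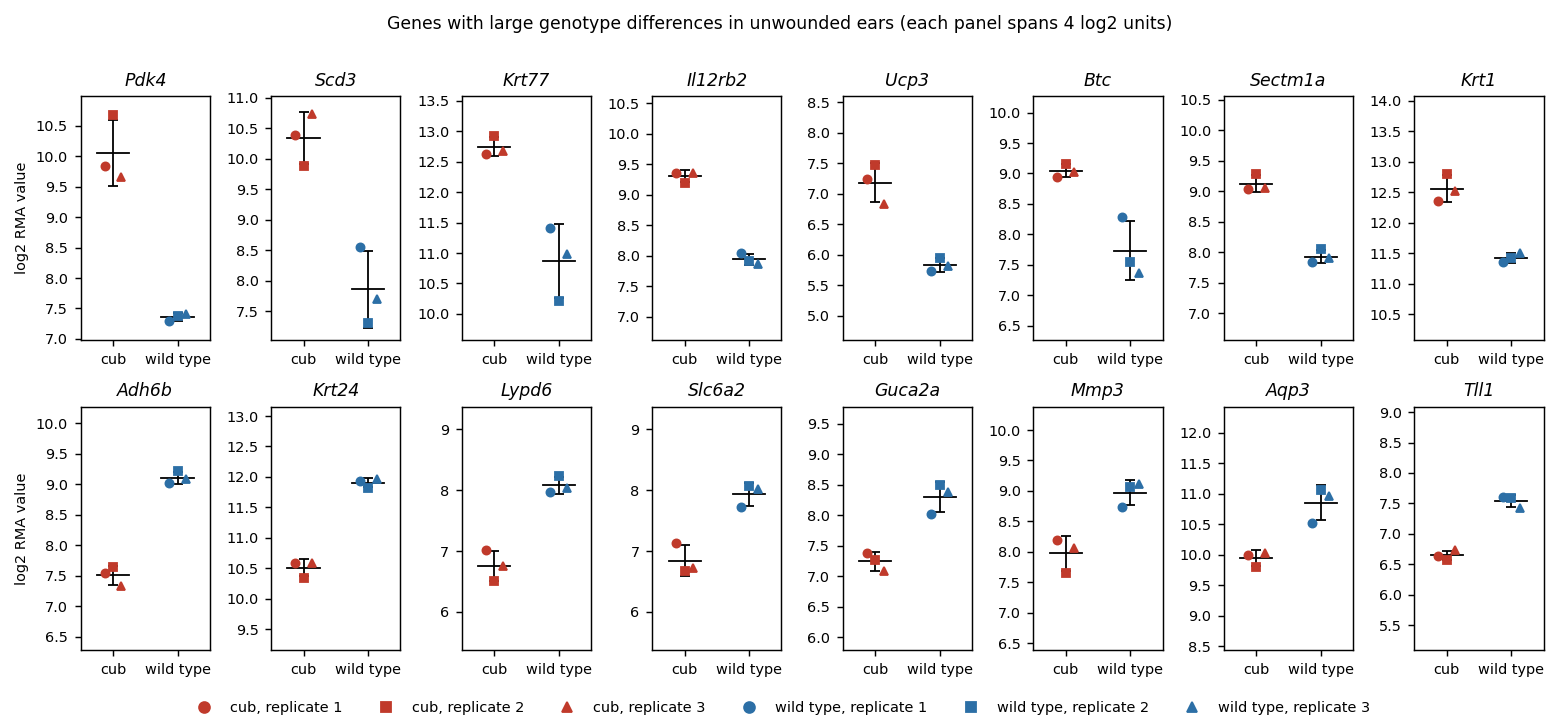
Log2 RMA values of 16 genes in each of the 6 arrays, cub at the left and wild type at the right of each panel, with the mean and SD of 3 arrays in black. Pdk4, Scd3, Krt77, Il12rb2, Ucp3, Btc, Sectm1a and Krt1 are higher and the other 8 genes lower in cub, with no overlap between the groups in any panel.

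Among the lower genes, Adh6b, an alcohol dehydrogenase, showed the largest difference in the row used. That row was at 7.54, 7.64 and 7.33 in cub ears, against 9.02, 9.22 and 9.08 in wild-type ears. The groups lay more than 1 log2 unit apart, with a difference of -1.60 ± 0.12 (limma, adjusted p = 1.49e-07). The other row of Adh6b differed by -0.23, and over the mean of both rows the difference was -0.91 (adjusted p = 6.4e-07), smaller than that of Krt24. Krt24, a type I keratin, was at 10.59, 10.35 and 10.59 in cub ears, against 11.94, 11.82 and 11.96 in wild-type ears. This was a 2.63-fold lower level in cub, by -1.40 ± 0.11 (limma, adjusted p = 1.49e-07). Lypd6, which encodes a Ly6-type protein that modulates Wnt signalling, was at 7.01, 6.51 and 6.75 in cub ears, against 7.96, 8.23 and 8.04 in wild-type ears. Its difference was -1.32 ± 0.15 (limma, adjusted p = 2.18e-05), again without overlap.

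Further genes that fell by about 2-fold or more in cub were Cyp2b23, a cytochrome P450, at -1.23 ± 0.21, and Slc6a2, the noradrenaline transporter, at -1.09 ± 0.14. Guca2a, which encodes the peptide guanylin, differed by -1.05 ± 0.14. Mmp3, which encodes stromelysin-1, was at 8.20, 7.66 and 8.07 in cub ears, against 8.74, 9.07 and 9.11 in wild-type ears. It was 2.00-fold lower in cub (-1.0 ± 0.12, limma, adjusted p = 6.82e-05). Aqp3, the water and glycerol channel of basal keratinocytes, lay between 9.80 and 10.03 in cub ears, and at 10.52, 11.06 and 10.97 in wild-type ears. That difference was -0.91 ± 0.10 (limma, adjusted p = 2.18e-05). Tll1, a tolloid protease that processes matrix proteins and BMP antagonists, differed by -0.90 ± 0.09, and the phosphatase gene Lhpp by -0.92 ± 0.18. Sptssb and Serpina3b, a subunit of the first enzyme of sphingolipid synthesis and a serine protease inhibitor, differed by -1.58 ± 0.39 and -1.30 ± 0.33 in the fit, but their calls were lost without several single arrays, with adjusted p = 0.134 and 0.0951 without wild-type replicate 2.

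Rhbdf2 itself was at 9.14, 9.07 and 9.11 in cub ears, against 8.76, 8.69 and 8.64 in wild-type ears. The arrays did not overlap, and its level was 0.41 ± 0.09 higher in cub (limma, adjusted p = 0.00883). The place of its probes relative to the deleted part was not examined, so this value does not check the genotype labels. The other iRhom gene, Rhbdf1, differed by 0.20 ± 0.07 (adjusted p = 0.105), and Frmd8, whose product stabilises iRhoms at the cell surface, by -0.03 ± 0.07 (adjusted p = 0.915).

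Of the EGF receptor ligands, 2 of 10 were higher in cub and none was lower. Btc, which encodes betacellulin, was at 8.95, 9.16 and 9.02 in cub ears, against 8.28, 7.55 and 7.37 in wild-type ears. The cub arrays lay close together and above all wild-type arrays, by 1.31 ± 0.19 (limma, adjusted p = 0.000335, and 0.0193 with only the 6 arrays at 0 h in the fit). Epgn, which encodes epigen, was at 6.33, 7.12 and 6.38 in cub ears, against 5.45, 5.55 and 5.82 in wild-type ears. It was 1.00 ± 0.16 higher in cub (limma, adjusted p = 0.00129). Ereg, which encodes epiregulin, was at 8.54, 8.68 and 8.35 in cub ears, against 7.88, 8.22 and 7.35 in wild-type ears. The groups did not overlap, but the difference of 0.71 ± 0.21 missed the threshold (limma, adjusted p = 0.0513). Without wild-type replicate 2 it passed (adjusted p = 0.0344), and without cub replicate 2 its adjusted p was 0.21. Tgfa differed by 0.28 ± 0.11 (adjusted p = 0.178), Hbegf by -0.08 ± 0.13 (adjusted p = 0.842) and Egf by 0.07 ± 0.09 (adjusted p = 0.764), and none of the neuregulin genes Nrg1, Nrg2, Nrg3 and Nrg4 was called, with differences from -0.17 to 0.10. Areg, the amphiregulin gene, was not analysed here.

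None of the 7 sheddase genes and none of the 4 receptor genes of this pathway was called by limma, and 3 and 1 of them had an unadjusted p under 0.05. Adam17 was at 10.16, 10.24 and 10.12 in cub ears, against 10.20, 10.12 and 10.02 in wild-type ears, a difference of 0.06 ± 0.06 (limma, adjusted p = 0.677). Egfr differed by 0.07 ± 0.06 (adjusted p = 0.686), Erbb2 by 0.21 ± 0.07 (adjusted p = 0.0906) and Erbb3 by 0.01 ± 0.07 (adjusted p = 0.971). Errfi1, an inhibitor that binds the active receptor, was at 11.08, 11.04 and 10.92 in cub ears, against 10.75, 10.70 and 10.72 in wild-type ears. It was 0.29 ± 0.06 higher in cub (limma, adjusted p = 0.00668). Lrig1, which promotes breakdown of the receptor, differed by 0.22 ± 0.06 (adjusted p = 0.0492), and this call was lost without any 1 of the 6 arrays (adjusted p = 0.0785 to 0.163). Of 12 feedback targets of the MAP kinase pathway 1 was called (8.33%, against 5.25% of all genes), Spry1 at 0.35 ± 0.09 (limma, adjusted p = 0.0295). The Spry1 call was lost without cub replicate 1 (adjusted p = 0.14), cub replicate 3 (0.051), wild-type replicate 1 (0.086) or wild-type replicate 2 (0.11).

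Of 11 epidermal keratin genes 5 were higher and 2 lower in cub. None of the 3 basal keratins was called by limma, 1 of them, Krt15, having an unadjusted p under 0.05, and Krt5 and Krt14 each differed by 0.02. All 7 called genes were among the 8 suprabasal keratins, and the difference between layers was not tested. Krt1 was at 12.36, 12.80 and 12.53 in cub ears, against 11.35, 11.42 and 11.50 in wild-type ears. The groups were about 1 unit apart, with a difference of 1.14 ± 0.12 (limma, adjusted p = 1.27e-05). Its usual partner in the suprabasal filament, Krt10, was at 13.19, 13.22 and 13.21 in cub ears, against 13.24, 13.19 and 13.18 in wild-type ears, and the groups overlapped. Krt10, like Krt5, lies near the top of the scale, where a microarray may no longer follow the amount of RNA, and this was not tested. Krt23 was 0.86 ± 0.11 higher in cub (adjusted p = 8.51e-05). Krt78, Krt80 and Krt2 differed by 0.43, 0.31 and -0.24, and each of these calls was lost without cub replicate 2 (adjusted p = 0.0896, 0.054 and 0.221) and without wild-type replicate 2 (adjusted p = 0.0694, 0.0727 and 0.094). Without cub replicate 2 the list had 3 higher and 1 lower members, and without wild-type replicate 2 it had the same counts. Krt17, a keratin of follicles and of stressed epidermis, was 0.52 ± 0.08 higher (adjusted p = 0.00058), and it was the only called gene among 4 wound keratins.

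In the cornified envelope list, 9 of 37 genes were higher and 1 was lower in cub, and 30 of 37 differences were above 0. The median difference was 0.20, against -0.007 over all genes tested. Ivl, which encodes involucrin, the scaffold of the envelope, was at 11.06, 11.15 and 10.93 in cub ears, against 10.46, 10.18 and 10.40 in wild-type ears. It was 0.70 ± 0.09 higher in cub (limma, adjusted p = 0.000205). Sprr4, a small proline-rich protein gene, was at 9.73, 10.97 and 10.23 in cub ears, and between 8.95 and 9.23 in wild-type ears. Cub replicate 2 was the highest, and the difference was 1.25 ± 0.21 (limma, adjusted p = 0.0013). Sprr1a was 0.55 ± 0.12 higher, with overlapping groups, and its call was lost without cub replicate 2 (adjusted p = 0.0796) or wild-type replicate 2 (adjusted p = 0.0626). Lce3c was the lower gene, at -0.69 ± 0.18, and without cub replicate 2 no member was lower. The list held 3 higher genes without cub replicate 2, and 5 without wild-type replicate 2 or without wild-type replicate 3. Ivl, Sprr4 and Crct1 stayed called with each array left out, Crct1 being named after its values were seen.

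The promoters of Ivl and Sprr1a are shown because both carry the AP-1 core TGANTCA, a motif through which MAP kinase signalling acts on many epidermal genes. Each line gives the 250 bases before the RefSeq start on the gene's strand, from GRCm38.p6, with TGANTCA and the TATA box TATAAA in capitals. Ivl lies on the minus strand at chr3:92573736-92573985, with TGANTCA starting 116 bases and TATAAA 29 bases before the start. Sprr1a lies on the minus strand at chr3:92485882-92486131, with TGANTCA starting 146 and 116 bases and TATAAA 43 bases before the start.
Ivl: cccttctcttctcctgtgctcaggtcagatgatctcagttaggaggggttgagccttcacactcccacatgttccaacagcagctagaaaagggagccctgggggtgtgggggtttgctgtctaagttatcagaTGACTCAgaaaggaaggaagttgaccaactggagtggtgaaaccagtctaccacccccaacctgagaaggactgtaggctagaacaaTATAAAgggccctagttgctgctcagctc
Sprr1a: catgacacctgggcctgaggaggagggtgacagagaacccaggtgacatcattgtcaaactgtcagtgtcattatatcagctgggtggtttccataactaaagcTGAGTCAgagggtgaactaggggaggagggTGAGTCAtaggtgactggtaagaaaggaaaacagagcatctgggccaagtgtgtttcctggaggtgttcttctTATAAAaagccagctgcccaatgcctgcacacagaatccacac
Windows of 300 bases, from 250 before to 50 after the start, were searched on both strands, and 15614 of the tested genes had one. TGANTCA was found in 59 of 512 genes called higher in cub (11.5%), in 15 of 304 genes called lower (4.93%) and in 8.03% of the genes not called. In the cornified envelope list 9 of 33 genes with a window held it, and so did 3 of the 9 called members with a window. It was in 7.81% of all 32851 windows, a share counted per window and not per gene. These shares describe letters in windows and were not tested.

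Of 15 epidermal protease genes 8 were higher in cub and none was lower, and of 10 inhibitor genes 3 were lower and none was higher. The higher genes held kallikreins, which cut the desmosomes of the outermost layer, and also Casp14, Asprv1 and Prss8, named after their values were seen, which act in the processing of filaggrin. Casp14, Asprv1 and Prss8 did not keep their calls with each array left out, and in this list only Klk7 and Klk8 did. Klk8, a kallikrein protease, was at 10.64, 10.70 and 10.82 in cub ears, against 10.14, 10.05 and 10.27 in wild-type ears. The groups did not overlap, and the difference was 0.57 ± 0.08 (limma, adjusted p = 0.000337). Klk7, the main chymotrypsin-like protease of the stratum corneum, named after its values were seen, was 0.41 ± 0.05 higher (adjusted p = 6.33e-05). Klk9 and Klk10 were 0.60 and 0.56 higher, and both calls were lost without cub replicate 2 (adjusted p = 0.11 and 0.0675). The Klk9 call was also lost without wild-type replicate 1 (adjusted p = 0.0505) or wild-type replicate 2 (adjusted p = 0.0587). Serpinb12, the lower inhibitor next in size to Serpina3b, differed by -0.53 ± 0.11, and without cub replicate 2 its adjusted p was 0.0542. Over proteases and inhibitors together, 8 were higher and 3 lower. The counts were 2 higher and 2 lower without cub replicate 2, and 4 higher and 1 lower without wild-type replicate 2.

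Among 17 genes of barrier lipids, 5 were higher and 1 was lower. Elovl1, which elongates the very long fatty acids of ceramides, was at 11.98, 12.05 and 11.91 in cub ears, against 11.75, 11.56 and 11.58 in wild-type ears, a difference of 0.35 ± 0.06 (limma, adjusted p = 0.00258). Slc27a4, a fatty acid transporter needed for the skin barrier, was the lower gene at -0.50 ± 0.10, and its call was lost without wild-type replicate 2 (adjusted p = 0.0509). Leaving out cub replicate 2 gave 1 higher and 1 lower member, leaving out wild-type replicate 2 gave 1 and 0, and leaving out wild-type replicate 3 gave 2 and 1. None of 26 cell division genes was called by limma and 6 had an unadjusted p under 0.05, and their median difference was 0.03.

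**Figure D2:**
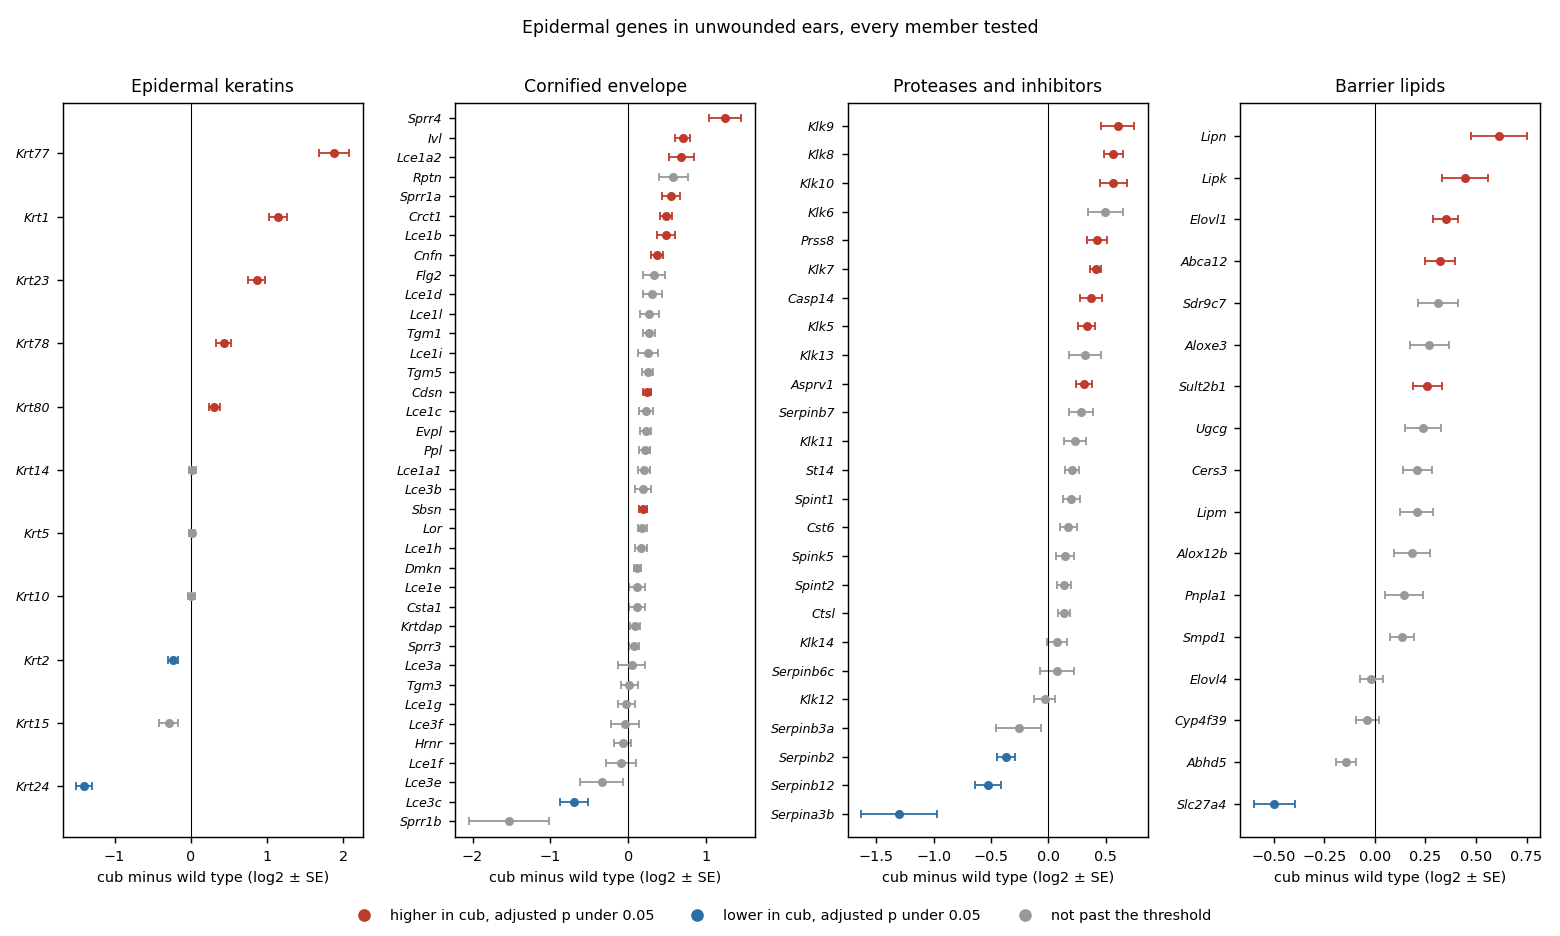
Difference between cub and wild type in log2 units with its standard error, for every tested member of 4 epidermal gene lists, with genes higher in cub in red, lower in blue and not past the threshold in grey. Suprabasal Krt77, Krt1 and Krt23 lie far to the right and Krt24 far to the left, while basal Krt5 and Krt14 lie at 0.02, and the 8 called proteases lie right and the 3 called inhibitors left of 0.

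Genes through which epithelium and T cells act on each other changed in both directions, while markers of T cells themselves did not pass the test. In a list of 17 such genes, 4 were higher and 2 lower in cub. Il12rb2 was at 9.36, 9.19 and 9.36 in cub ears, against 8.04, 7.91 and 7.87 in wild-type ears. The difference of 1.36 ± 0.14 (limma, adjusted p = 1.27e-05) was several times the spread within each group. Sectm1a was at 9.03, 9.28 and 9.05 in cub ears, against 7.83, 8.05 and 7.90 in wild-type ears, 1.19 ± 0.09 higher in cub (limma, adjusted p = 2e-07). Mill1, a class I-like gene of the skin, was at 8.90, 9.36 and 8.93 in cub ears, against 8.14, 7.72 and 7.66 in wild-type ears. It was 1.22 ± 0.14 higher in cub (limma, adjusted p = 2.18e-05). The epithelial cytokine genes moved apart, with Il18 at 0.55 ± 0.11 (adjusted p = 0.00682) and the alarmin Il33 at -0.49 ± 0.10 (adjusted p = 0.00713). Of 19 T cell and NK cell markers none was called by limma and 3 had an unadjusted p under 0.05, with a median difference of 0.05 and list means of 6.16 to 6.25 in cub and 6.08 to 6.20 in wild type.

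Of 43 cytokine and chemokine genes, 5 were higher and 1 was lower. Cxcl16, a membrane chemokine that ADAM proteases can shed, was at 8.56, 8.75 and 8.54 in cub ears, against 7.95, 7.92 and 7.94 in wild-type ears. Its groups were well apart, at 0.68 ± 0.08 (limma, adjusted p = 2.18e-05). Ccl28, a chemokine of epithelia, was at 5.92, 5.68 and 5.83 in cub ears, against 6.47, 6.65 and 6.39 in wild-type ears, a difference of -0.69 ± 0.11 (limma, adjusted p = 0.00111). The eotaxin gene Ccl11 was 0.88 ± 0.19 higher, and without cub replicate 2 its adjusted p was 0.0707. The list had 2 higher and 1 lower members without cub replicate 2. Of 20 interferon-stimulated genes 3 were higher (15.0%), with Usp18, which restrains interferon signalling, at 0.59 ± 0.12 (limma, adjusted p = 0.00643). In this list 1 gene was higher without cub replicate 2, without wild-type replicate 2 or without wild-type replicate 3.

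Of 37 genes for the use of fatty acids as fuel 6 were higher and none was lower in cub (16.2% called), and the median difference was 0.09. Besides Pdk4, Ucp3 was at 7.24, 7.47 and 6.84 in cub ears, against 5.73, 5.95 and 5.82 in wild-type ears. It was 1.35 ± 0.17 higher (limma, adjusted p = 7.51e-05). Fabp3, the fatty acid carrier of heart and muscle, was at 9.65, 9.92 and 9.50 in cub ears, against 8.71, 8.57 and 8.47 in wild-type ears, 1.11 ± 0.15 higher (limma, adjusted p = 0.000243), and its second row differed by 1.04. Acot1, an acyl-CoA thioesterase, was 0.43 ± 0.09 higher (adjusted p = 0.00655). Mlycd, which degrades the malonyl-CoA that blocks fatty acid entry into mitochondria, was 0.45 ± 0.09 higher, and its call was lost without cub replicate 2 (adjusted p = 0.061) or wild-type replicate 2 (adjusted p = 0.0515). Ppara and Ppard, receptors that switch on such genes, were not called, as the plot of clock and metabolic genes shows. Of 33 respiratory chain subunit genes 1 was called (3.03%, against 5.25% of all genes), and their median difference was -0.01. None was called without cub replicate 1, cub replicate 2, wild-type replicate 1 or wild-type replicate 2.

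Pdk4, Ucp3 and Fabp3 are also expressed in muscle and fat, and markers of those tissues are given beside them. The mean level of 30 skeletal muscle genes was 10.46, 10.51 and 10.38 in cub ears, against 10.36, 10.18 and 10.05 in wild-type ears. The lowest cub array, at 10.38, was only just above the highest wild-type array, at 10.36. Of these genes 2 were called (6.67%, against 5.25% of all genes), and 29 of 30 differences were above 0, with a median of 0.20. Myh2 was at 9.96, 9.59 and 9.66 in cub ears, against 9.11, 8.25 and 8.61 in wild-type ears, a difference of 1.08 ± 0.19 (limma, adjusted p = 0.00258). The other called muscle gene, Mybpc2, lost its call without cub replicate 2 (adjusted p = 0.118), cub replicate 3 (adjusted p = 0.0571) or wild-type replicate 2 (adjusted p = 0.138). The mean level of 15 adipocyte genes was 8.39, 9.41 and 8.80 in cub ears, against 8.42, 8.49 and 8.38 in wild-type ears, and the groups overlapped. Of these genes 2 were called with all arrays (13.3%), none without cub replicate 2, 7 without cub replicate 1, and 1 when any other single array was left out. The part of muscle and fat in the fuel genes was not tested. Without cub replicate 2, Pdk4, Ucp3, Fabp3 and Acot1 stayed called.

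Of 30 sebaceous gland genes 2 were higher and 6 lower, and 10 of 30 differences were above 0. Awat2 was at 8.21, 8.36 and 9.08 in cub ears, against 7.37, 6.99 and 7.13 in wild-type ears. It was 1.39 ± 0.21 higher (limma, adjusted p = 0.000709) and, with Scd3, made up the higher genes. Hsd3b6, a steroid dehydrogenase of the gland, was at 9.24, 9.02 and 9.46 in cub ears, against 10.10, 10.05 and 9.89 in wild-type ears. Its arrays did not overlap, with a difference of -0.77 ± 0.13 (limma, adjusted p = 0.00132). Elovl3 and Fa2h, which build and hydroxylate long fatty acids, differed by -0.58 and -0.47. Both calls were lost without cub replicate 2 (adjusted p = 0.0742 for each) or wild-type replicate 2 (adjusted p = 0.151 and 0.0738), and that of Elovl3 also without cub replicate 1 (adjusted p = 0.081). The list had 2 higher and 2 lower genes without cub replicate 2 or without wild-type replicate 2, and 2 higher and 3 lower without cub replicate 1.

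Of 17 tested circadian clock genes 5 were higher and 3 lower in cub. In the oscillator the proteins of Arntl and Clock form a pair that switches on the Per, Cry and Nr1d genes through E-boxes, and the products of those targets feed back on the pair. Both genes of the activating pair were lower, while targets of the pair went both ways, with Per1, Nr1d1, Nr1d2, Dbp and Bhlhe40 higher and Cry1 lower. Arntl was at 8.33, 8.30 and 8.28 in cub ears, against 8.74, 8.77 and 8.76 in wild-type ears. The arrays of each group lay within 0.05 of each other, and the difference was -0.45 ± 0.08 (limma, adjusted p = 0.00139). Per1 was at 10.07, 9.98 and 9.79 in cub ears, against 9.38, 9.35 and 9.48 in wild-type ears, 0.54 ± 0.10 higher (limma, adjusted p = 0.0032). Cry1 was at 7.32, 6.98 and 6.96 in cub ears, against 7.64, 7.54 and 7.63 in wild-type ears, a difference of -0.52 ± 0.09 (limma, adjusted p = 0.0031).

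The other called clock genes were less firm. Bhlhe40, a repressor that competes for E-boxes, was 0.36 ± 0.08 higher, and its call was lost without cub replicate 2 (adjusted p = 0.0882) or wild-type replicate 3 (adjusted p = 0.0565). Dbp, an output gene of the clock, was 0.33 ± 0.08 higher, and its call was lost without wild-type replicate 2 (adjusted p = 0.0609). Clock, Nr1d1 and Nr1d2, named after their values were seen, differed by -0.25, 0.25 and 0.21. The counts were 3 higher and 2 lower without cub replicate 1 or wild-type replicate 2, with 2 higher and 2 lower when cub replicate 2 was left out, and 2 higher and 3 lower when it was wild-type replicate 3. The labels used here do not give the hour at which ears were collected, so hour and genotype cannot be told apart for these genes.

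The promoters of Per1 and Cry1 are shown because both hold the E-box CACGTG, to which Arntl and Clock bind, while the genes differed in opposite directions. Each line gives the 250 bases before the RefSeq start in GRCm38.p6, with CACGTG in capitals. Per1 lies on the plus strand at chr11:69098699-69098948, with the E-box starting 166 bases before the start. Cry1 lies on the minus strand at chr10:85185055-85185304, with the E-box starting 60 bases before the start.
Per1: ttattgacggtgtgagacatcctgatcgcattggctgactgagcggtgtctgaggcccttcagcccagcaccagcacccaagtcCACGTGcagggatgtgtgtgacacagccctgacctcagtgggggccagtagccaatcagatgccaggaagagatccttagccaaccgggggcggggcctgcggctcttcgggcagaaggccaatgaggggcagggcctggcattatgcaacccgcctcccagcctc
Cry1: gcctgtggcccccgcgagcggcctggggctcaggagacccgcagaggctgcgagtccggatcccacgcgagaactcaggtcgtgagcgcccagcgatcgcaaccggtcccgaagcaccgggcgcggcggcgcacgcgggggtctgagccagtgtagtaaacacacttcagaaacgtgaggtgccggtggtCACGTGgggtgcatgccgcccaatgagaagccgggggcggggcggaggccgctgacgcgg
In the 300-base windows, CACGTG was found in 54 of 512 genes called higher in cub (10.5%), in 35 of 304 genes called lower (11.5%) and in 9.42% of the genes not called. It was in 5 of 15 clock genes with a window, in 2 of the 7 called ones, and in 7.15% of all windows, a share counted per window. CACGTG reads the same on both strands, and TGANTCA does as well apart from its open base.

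Per1 is also a direct target of the glucocorticoid receptor. Of 15 glucocorticoid target genes 3 were higher and none was lower, with a median difference of 0.21. Besides Per1, Nfkbia, the inhibitor of NF-kappaB, was 0.33 ± 0.08 higher, and its call was lost without cub replicate 1 (adjusted p = 0.0705). Klf9, a factor induced by glucocorticoids, was 0.35 ± 0.09 higher, and it kept its call only when cub replicate 3 was the array left out, with adjusted p = 0.0574 to 0.178 without any other single array.

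Both subunits of the enzyme that limits glutathione synthesis were lower in cub. Of 24 targets of NRF2, the factor that drives the antioxidant response, 5 were lower and 2 higher, and the median difference was -0.06. Gclc, the catalytic subunit, was at 9.20, 9.21 and 9.17 in cub ears, against 9.59, 9.66 and 9.58 in wild-type ears. The groups were well apart, at -0.42 ± 0.08 (limma, adjusted p = 0.00431). Gclm, the regulatory subunit, named after its values were seen, differed by -0.28 ± 0.06 (limma, adjusted p = 0.00748). Slc7a11, which imports cystine for glutathione, was at 5.57, 5.22 and 5.38 in cub ears, against 5.96, 6.35 and 6.03 in wild-type ears. It differed by -0.72 ± 0.15 (limma, adjusted p = 0.00669), and its call was lost without cub replicate 2 (adjusted p = 0.0543) or wild-type replicate 2 (adjusted p = 0.056). The glutathione transferase Gsta3 differed by -0.51 ± 0.11, and its call was lost without cub replicate 2 (adjusted p = 0.0555) or wild-type replicate 3 (adjusted p = 0.0578).

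The 2 higher NRF2 targets were Hmox1 and Ephx1, and 7 of 24 differences were above 0. Ephx1 was 0.29 ± 0.06 higher (limma, adjusted p = 0.00989). Its call was lost without cub replicate 2 (adjusted p = 0.0811) or wild-type replicate 2 (adjusted p = 0.0586). Hmox1, which degrades haem and is also high in macrophages, was 0.62 ± 0.15 higher (adjusted p = 0.016), and its call was lost without cub replicate 2 (adjusted p = 0.128), wild-type replicate 2 (adjusted p = 0.0745) or wild-type replicate 3 (adjusted p = 0.0806). Nqo1, the textbook NRF2 target, differed by -0.02 ± 0.11 (limma, adjusted p = 0.969) and lay near 0 in the plot of clock and metabolic genes. Leaving out cub replicate 2 gave 0 higher and 2 lower NRF2 targets, leaving out wild-type replicate 2 gave 0 and 3, and leaving out wild-type replicate 3 gave 1 and 4.

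Of 19 genes of cholesterol synthesis and uptake 6 were lower and 1 was higher in cub. The median difference was -0.12, and 3 of the 19 differences were above 0. Hsd17b7, a ketoreductase of the late pathway, was at 10.37, 10.42 and 10.44 in cub ears, against 10.91, 11.02 and 10.82 in wild-type ears, a difference of -0.51 ± 0.09 (limma, adjusted p = 0.00198). Idi1, which makes the isoprene unit used further down the pathway, was at 9.68, 9.74 and 9.79 in cub ears, against 10.17, 10.34 and 10.19 in wild-type ears. Its difference was -0.50 ± 0.09 (limma, adjusted p = 0.00229). Msmo1, a sterol methyl oxidase, differed by -0.30 ± 0.06 (adjusted p = 0.00572). Dhcr7, which makes the last step to cholesterol, named after its values were seen, was the higher gene at 0.28 ± 0.06 (limma, adjusted p = 0.00865). Insig1, the sterol sensor partner, differed by -0.39 ± 0.09, and its call was lost without cub replicate 1, cub replicate 2, wild-type replicate 2 or wild-type replicate 3 (adjusted p = 0.0661, 0.0546, 0.0897 and 0.0676). Leaving out cub replicate 2 gave 1 higher and 3 lower genes, leaving out wild-type replicate 2 gave 0 and 3, and leaving out any other single array gave 1 and 4.

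**Figure D3:**
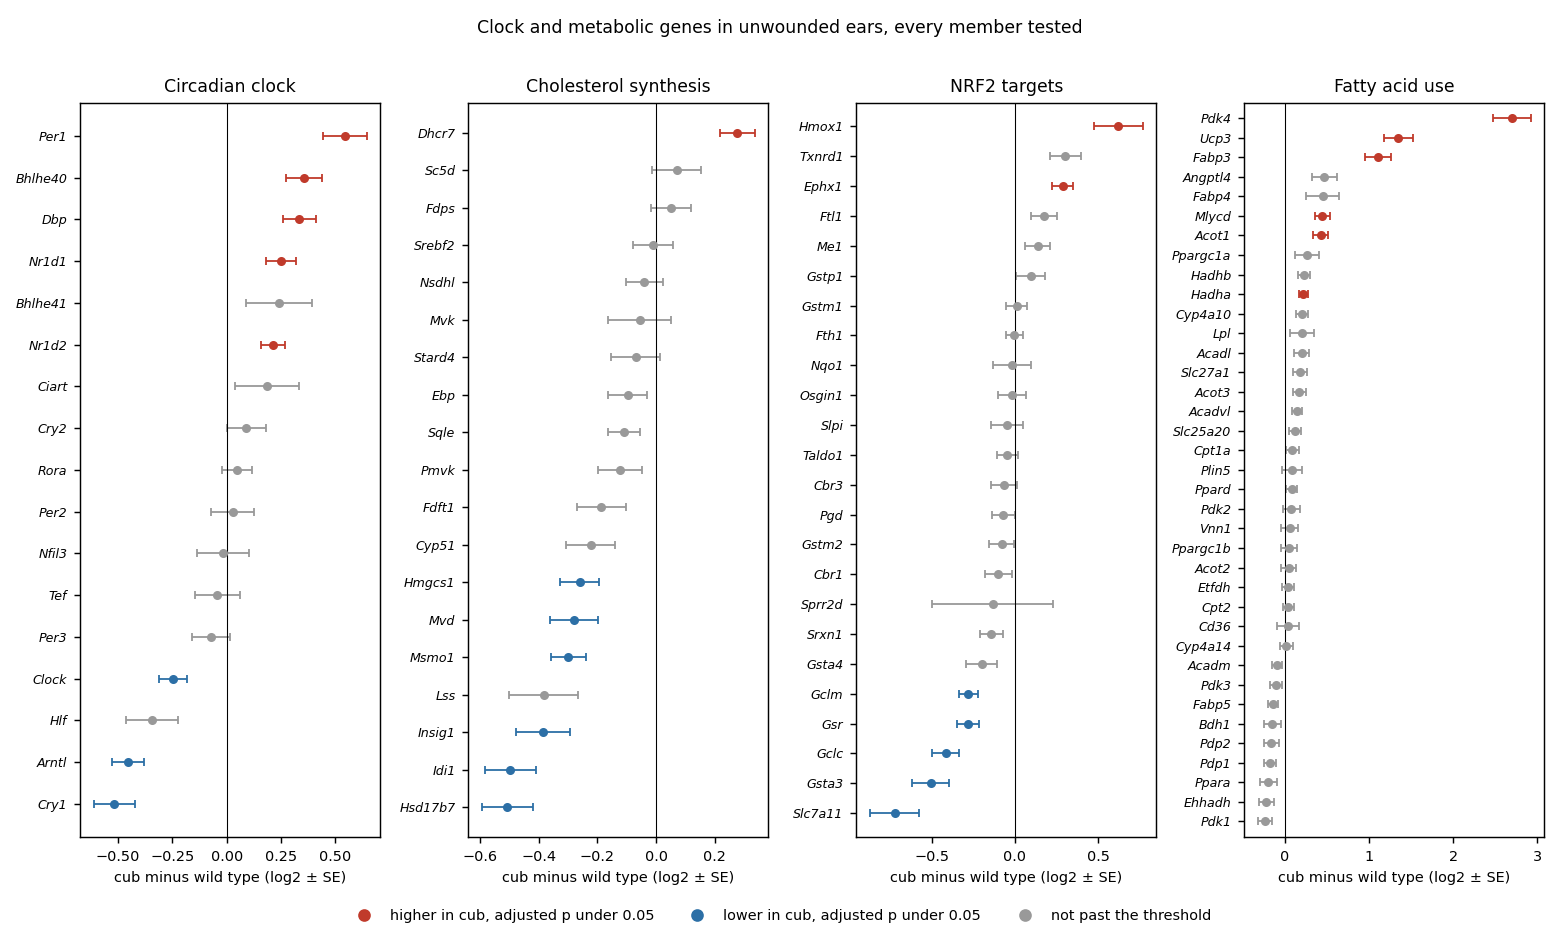
Difference between cub and wild type in log2 units with its standard error, for every tested member of the clock, cholesterol, NRF2 and fatty acid lists, with genes higher in cub in red, lower in blue and not past the threshold in grey. Per1 stands at the top and Arntl and Cry1 at the bottom of the clock panel, 6 cholesterol genes lie left of 0 in blue, and Pdk4, Ucp3 and Fabp3 lie far to the right in the fatty acid panel.

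Genes that handle retinol and alcohols differed in both directions, with 2 higher and 4 lower of 37 (16.2% called, against 5.25% of all genes). Beside Adh6b, the alcohol dehydrogenase Adh1, which can oxidise retinol, was at 10.47, 10.32 and 10.42 in cub ears, against 10.86, 10.80 and 11.01 in wild-type ears. The difference was -0.49 ± 0.09 (limma, adjusted p = 0.00234). Lrat, which stores retinol as esters, was at 5.84, 6.08 and 6.11 in cub ears, against 5.66, 5.22 and 5.39 in wild-type ears, 0.59 ± 0.10 higher (limma, adjusted p = 0.00234). The list had 2 higher and 2 lower genes without cub replicate 1, and 1 higher and 2 lower without cub replicate 2, cub replicate 3 or wild-type replicate 2. Adh6b, Adh1 and Lrat were called in each of these.

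Of 23 cytochrome P450 genes 3 were higher and 2 lower (21.7% called, against 5.25% of all genes). Cyp2b10, a drug-metabolising enzyme, was at 10.17, 10.16 and 10.10 in cub ears, against 10.74, 10.82 and 10.59 in wild-type ears, a difference of -0.57 ± 0.09 (limma, adjusted p = 0.0013). Cyp2e1 was at 6.47, 8.34 and 6.29 in cub ears, against 5.54, 5.58 and 6.07 in wild-type ears, and cub replicate 2 was nearly 2 units above the others of its group. Its call (1.30 ± 0.33, adjusted p = 0.0247) was lost without that array (adjusted p = 0.0986), wild-type replicate 1 (0.0764) or wild-type replicate 2 (0.102). The list had 0 higher and 2 lower genes without cub replicate 2, 0 and 1 without wild-type replicate 2, 1 and 2 without wild-type replicate 1, and 1 and 1 without cub replicate 3 or wild-type replicate 3.

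Of 34 hair follicle genes 0 were higher and 2 lower, a share of 5.88% called against 5.25% of all genes. Foxq1, a factor of the hair medulla whose loss gives the satin coat in mice, was at 8.53, 7.98 and 8.36 in cub ears, against 8.99, 9.04 and 8.89 in wild-type ears. It differed by -0.68 ± 0.11 (limma, adjusted p = 0.00153). Sox9, a factor of follicle stem cells, differed by -0.31 ± 0.09 (adjusted p = 0.0427), and its call was lost without any 1 of the 6 arrays (adjusted p = 0.0598 to 0.163). Krt25, a keratin of the inner root sheath, was at 6.70, 5.69 and 8.05 in cub ears, against 5.85, 5.73 and 6.01 in wild-type ears, and the groups overlapped. None of 8 inner root sheath genes was called by limma, and 5 had an unadjusted p under 0.05. Without cub replicate 2, where Krt25 was lowest, 5 follicle genes were higher and 1 was lower, so the list count for hair rests on that array.

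Among 20 matrix metalloproteinase and inhibitor genes 1 was higher and 2 were lower (15.0% called, against 5.25% of all genes). Mmp12, the elastase of macrophages, was at 6.20, 6.66 and 6.31 in cub ears, against 5.70, 5.63 and 5.82 in wild-type ears. It was 0.67 ± 0.12 higher (limma, adjusted p = 0.0031), opposite to Mmp3.

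Some markers of vessels and connective tissue were higher in cub. Of 12 endothelial genes 6 were higher, and all 12 differences were above 0, with a median of 0.29. Cdh5, the cadherin that joins endothelial cells, was at 9.45, 9.73 and 9.60 in cub ears, against 9.10, 8.91 and 8.95 in wild-type ears. The groups did not overlap, and the difference was 0.61 ± 0.07 (limma, adjusted p = 4.67e-05). Pecam1, an adhesion protein of the same cells, was at 8.74, 9.05 and 8.83 in cub ears, against 8.47, 8.45 and 8.22 in wild-type ears, 0.49 ± 0.07 higher (limma, adjusted p = 0.000599). Tek and Vwf, which encode an angiopoietin receptor and von Willebrand factor, were 0.45 and 0.41 higher. The mean of the list was 8.10, 8.36 and 8.16 in cub ears, against 7.95, 7.85 and 7.86 in wild-type ears. Without cub replicate 2 or wild-type replicate 2, 4 of the 12 genes were higher.

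Among 28 genes of fibroblasts and their matrix, 8 were higher, 0 were lower and 25 differences were above 0, with a median of 0.22. The mean of the list was 10.20, 10.32 and 10.27 in cub ears, against 10.07, 10.05 and 10.01 in wild-type ears. Col14a1, a fibril-associated collagen, was 0.66 higher, and its call was lost without cub replicate 2 (adjusted p = 0.0871) or wild-type replicate 3 (adjusted p = 0.0669). Loxl1, which cross-links elastin, was 0.50 higher, and its call was lost without cub replicate 2 (adjusted p = 0.0578). The count was 1 without cub replicate 2, that gene being the collagen Col5a2 (0.33 ± 0.06, adjusted p = 0.00151, named after its values were seen), and 4 without wild-type replicate 2 or wild-type replicate 3. Of 10 smooth muscle and pericyte genes 3 were higher, none of them without cub replicate 2 and 1 without cub replicate 1, wild-type replicate 2 or wild-type replicate 3.

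Of 22 macrophage markers 3 were higher (13.6% called, against 5.25% of all genes and 16.7% of all list members). Among them 20 differences were above 0 and the median was 0.29, against -0.007 over all genes. The mean of the list was 7.96, 8.49 and 8.11 in cub ears, against 7.75, 7.87 and 7.96 in wild-type ears, so the groups met at 7.96. Adgre1, an adhesion receptor used to mark macrophages, and Cd163, a haemoglobin scavenger receptor, were 0.62 and 0.57 higher, and without cub replicate 2 their adjusted p was 0.208 and 0.284. No macrophage marker was called without that array, 1 was called without any 1 of the wild-type arrays, 2 without cub replicate 3 and 4 without cub replicate 1. Of 12 mast cell markers 1 was called (8.33%), Fcer1a at 0.56. Its call was lost without cub replicate 2 (limma, adjusted p = 0.0528), while 2 mast cell markers were called without cub replicate 3. Of 19 cartilage markers 1 was called (5.26%, near the share of all genes), Comp at 0.55, also lost without cub replicate 2 (limma, adjusted p = 0.0555). No marker of neutrophils (13 genes), B cells (7), antigen-presenting cells with MHC class II (13), melanocytes (13) or erythroid cells (4) was called by limma, and 1, 0, 3, 3 and 2 of them in this order had an unadjusted p under 0.05. Without cub replicate 1, 2 of the MHC class II genes and 1 of the erythroid genes were called.

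**Figure D4:**
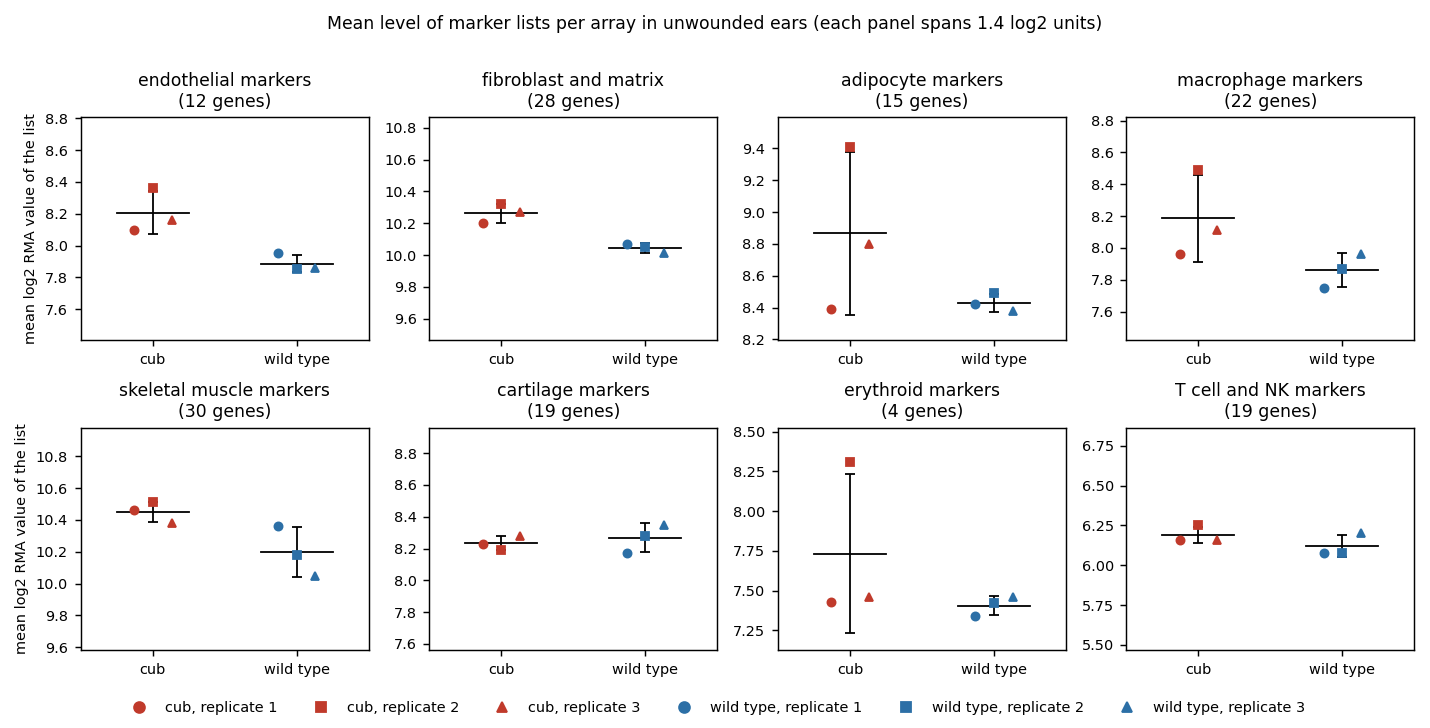
Mean log2 RMA value of 8 marker lists in each of the 6 arrays, cub at the left and wild type at the right of each panel, with the mean and SD of 3 arrays in black. Endothelial and fibroblast means are higher in all cub arrays than in any wild-type array, and cub replicate 2, the square, stands highest in the adipocyte (9.41), macrophage (8.49) and erythroid (8.31) panels.

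Some smaller lists each held a firm member. Of 24 antimicrobial genes 3 were higher (12.5%, against 5.25% of all genes). Among them Defb1, a beta-defensin of epithelia, was at 10.39, 10.27 and 10.24 in cub ears, against 9.81, 9.45 and 9.69 in wild-type ears. It was 0.65 ± 0.12 higher (limma, adjusted p = 0.00433), and Pglyrp3, a peptidoglycan recognition protein, was 0.61 ± 0.12 higher (adjusted p = 0.00414). Of 22 hypoxia and glycolysis genes 2 were higher (9.09%, against 5.25% of all genes). Egln3, an oxygen-sensing hydroxylase, was 0.73 ± 0.15 higher (limma, adjusted p = 0.00599). Hspb1, a small heat shock protein of suprabasal keratinocytes and muscle, was 0.36 ± 0.06 higher (limma, adjusted p = 0.00129), 1 of 2 called among 13 chaperones (15.4%). The hypoxia and chaperone lists each had 1 called gene without cub replicate 2 or wild-type replicate 3, and the chaperones also without wild-type replicate 2. Of 21 immediate early genes only Egr2 was called, at 0.38, a share of 4.76% against 5.25% of all genes. The Egr2 call was lost without cub replicate 2 (limma, adjusted p = 0.0965) or wild-type replicate 3 (adjusted p = 0.0631).

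The cub strain is congenic by its name, and such strains can carry donor sequence beside the selected gene. Among the 50 tested genes that lie nearest to Rhbdf2, 25 on each side in the order of the reference gene table, 2 were called (4.0%), both higher in cub. Unc13d, a factor for the release of cytotoxic granules, was 0.39 ± 0.07 higher (adjusted p = 0.00414), and St6galnac2, a sialyltransferase, was 0.40 ± 0.08 higher (adjusted p = 0.00414). Within 10 genes on each side 1 of 20 was called (5.0%), and within 50 genes 5 of 100 (5.0%). These shares lie near the 5.25% of all genes, as does the 5.75% of chromosome 11, on which Rhbdf2 lies. Of 11 genes known to differ between inbred strains 1 was called (9.09%, against 5.25% of all genes), Nnt, a mitochondrial transhydrogenase that is disrupted in C57BL/6J. Nnt was at 7.79, 7.79 and 7.76 in cub ears, against 7.47, 7.46 and 7.06 in wild-type ears (0.45 ± 0.13, limma, adjusted p = 0.0387), and its call was lost without any 1 array except wild-type replicate 1, with adjusted p = 0.0617 to 0.212.

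The cub and wild-type ears at 15 min, 2 h and 24 h after wounding were measured on other arrays, whose levels do not enter the 0 h difference. Whether these ears came from other mice was not established here. All arrays share the fit from which the spread of a gene was taken, so calls at different times are not independent tests. These were rims of a punched hole, and the 15 min cub group had 2 arrays. Of the 663 genes higher in cub at 0 h, 116 were also higher at 15 min (17.5% of the 0 h list, 37.1% of the 15 min list), 225 at 2 h (33.9% and 29.4%) and 97 at 24 h (14.6% and 21.7%). Of all genes, 1.57%, 3.84% and 2.24% were higher in cub at these times. Of the 384 genes lower in cub at 0 h, 131 were also lower at 15 min (34.1% and 34.9%), 40 at 2 h (10.4% and 34.8%) and 94 at 24 h (24.5% and 13.7%), against 1.88%, 0.577% and 3.44% of all genes. In either direction, 3.45%, 4.41% and 5.68% of all genes were called at 15 min, 2 h and 24 h. There were 521 genes called with the same sign at 1 or more later times and 526 with no such call at a later time. Without cub replicate 2 the number called also at a later time was 244, and without wild-type replicate 2 it was 256.

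Called at all 4 times with the same sign were 35 genes, 21 higher and 14 lower in cub. Krt77 differed by 1.87, 1.43, 1.12 and 1.18 at 0 h, 15 min, 2 h and 24 h. Krt24 differed by -1.40, -1.39, -0.95 and -0.81, and Lypd6 by -1.32, -1.26, -0.95 and -0.91. Sectm1a, which was not among the genes named by size for this set, differed by 1.19, 1.12, 1.25 and 0.83. Adh6b differed by -1.60, -1.63, -1.12 and -0.43, so its difference was smallest at 24 h. Serpina3b, whose call at 0 h was lost without several single arrays, differed by -1.30, -1.38, -1.73 and -1.43. Of the genes with no same-sign call after 0 h, Fabp3 differed by 1.11, 0.59, 0.10 and 0.29, and Retnla by 1.58, 0.12, 0.82 and 1.06. For neither gene did the change from 0 h pass at 15 min, 2 h or 24 h. Its limma adjusted p was 0.549, 0.075 and 0.079 for Fabp3, and 0.492, 0.603 and 0.767 for Retnla.

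The change of the genotype difference between 0 h and each later time was tested in the same fit. No gene passed for 15 min, where 1740 had an unadjusted p under 0.05 by limma, 26 passed for 2 h (0.13% of those tested) and 200 for 24 h (1.0%). Pdk4 differed by 2.70 at 0 h, 2.12 at 15 min, 0.27 at 2 h and 0.83 at 24 h, and its difference at 0 h exceeded that at 2 h by 2.43 ± 0.32 (limma, adjusted p = 0.00359). Mill1 differed by 1.22 at 0 h and 0.11 at 2 h, a change of 1.11 ± 0.19 (limma, adjusted p = 0.0268). Cry1 differed by -0.52 at 0 h and 0.20 at 2 h, a change of -0.72 ± 0.13 (limma, adjusted p = 0.0374). Rhbdf2 was 0.41 higher at 0 h and differed by -0.49 at 24 h. Most genes named here were chosen for large differences at 0 h, which by itself favours smaller differences later. Wounded and unwounded samples may also differ in the piece of ear taken, which cannot be told apart from the wound here.

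**Figure D5:**
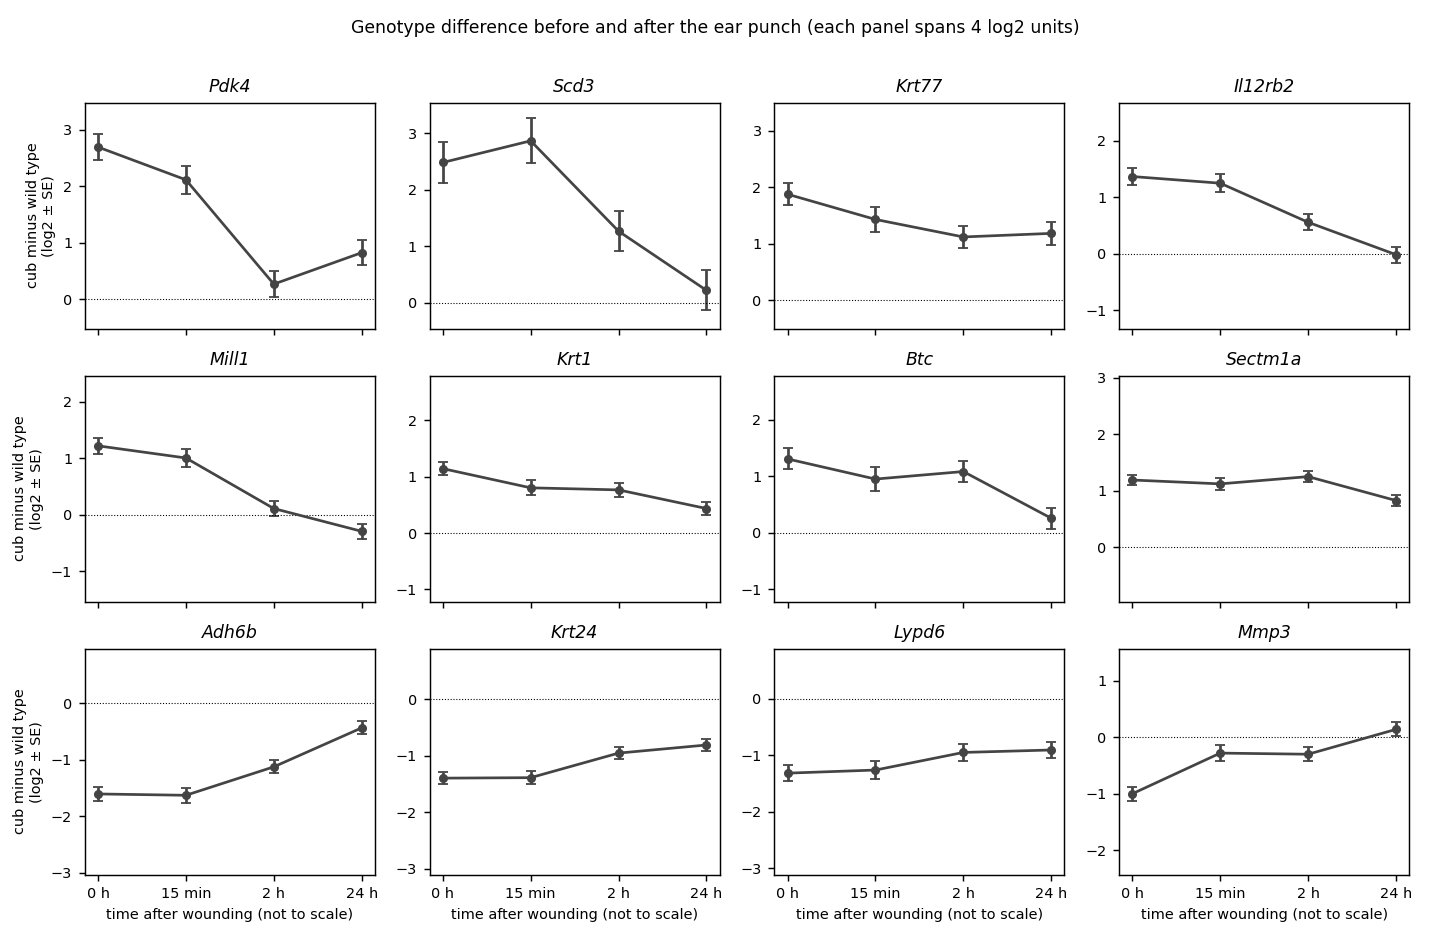
Difference between cub and wild type in log2 units with its standard error at 0 h, 15 min, 2 h and 24 h, for 12 genes that differed at 0 h, with a dotted line at no difference. Krt77, Krt24, Lypd6 and Sectm1a stay on their side of the line at all 4 times, while Pdk4 is near it at 2 h and Scd3, Il12rb2 and Mmp3 are near it at 24 h.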

How the data were processed

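The arrays were of the type Affymetrix Mouse Gene 1.0 ST. The authors deposited log2 values, and the submitters' processing notes name RMA and Affymetrix Expression Console 1.1. Not given in the sources used here are the genome build, the annotation release and the level of summarization. RMA quantile normalizes the arrays, so a shift shared by most genes would be removed. Precision is limited by the number of arrays.

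The table held 35556 rows for 23 arrays, of which 21789 carried 1 gene symbol, 1621 several and 12146 none, and the last 2 kinds were left out. Gene IDs matched the GRCm38.p6 gene table for 21698 rows. Where a gene had several rows (999 genes), its row of highest mean over all arrays stood for it. Samples were grouped by their labels. The test was limma 3.58.1, run in R 4.3.3 with 1 mean for each of the 8 groups of genotype and time, 15 residual and 5.61 prior degrees of freedom, and two-sided tests at an adjusted p of 0.05 (Benjamini-Hochberg). R/maanova, which the design text names, was not run here. In data simulated with the spread of these arrays, 89.6% of genes changed by 0.5 and all of those changed by 1 or 2 log2 units were called among 19938 genes, and 3.98% of the calls were unchanged genes. The simulated noise was normal and independent between genes and arrays, with 200 changed genes and no array that stood apart. These shares therefore need not hold for the measured arrays.

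Gene lists came from general knowledge, and they and the comparison were chosen with earlier results of these data known. They named 1008 genes, of which 935 were tested, and 64 names were not analysed here. Of the 935 genes, 115 were called higher and 41 lower in cub (16.7%). Named genes were Rhbdf2; the 20 with the largest positive and negative differences without overlap; the 5 largest called members of each list; every ligand, sheddase, receptor and epidermal keratin gene; called neighbours of Rhbdf2; genes in which cub replicate 2 stood apart; and the 5 largest called at 0 h alone or at all times. Of these 177 genes not all are printed. Genes named beyond this rule are cell type markers, are marked as such, or are Nqo1, Ppara and Ppard. Promoters are from RefSeq, where 15614 of the tested genes had a window. Alternatives covered scaling, a filter on low values, the arrays in the fit, the replicate block, moderation, array weights, the row per gene and each array left out.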

Additional observations from a re-analysis of the deposited data

Results flagged for a closer look

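The genotype difference at 0 h was set against the difference at later times for each of the 177 named genes, and 25 such contrasts passed limma's test over all genes. Over all 19938 genes, 0 passed for 15 min, 26 for 2 h (0.13%) and 200 for 24 h (1.0%). Most named genes were chosen for large differences at 0 h, which by itself favours smaller differences later. Values are the difference at 0 h minus that at the later time, with standard error. Against 2 h they were Pdk4 at 2.43 ± 0.32 (adjusted p = 0.00359), Ucp3 at 1.23 ± 0.24 (adjusted p = 0.039), Mill1 at 1.11 ± 0.19 (adjusted p = 0.0268) and Cry1 at -0.72 ± 0.13 (adjusted p = 0.0374). The cub minus wild-type difference at 2 h was 0.27, 0.12, 0.11 and 0.20 in these genes.

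Against 24 h, 6 genes with a large rise in unwounded cub ears changed. Scd3 was at 2.26 ± 0.50 (adjusted p = 0.033), Pdk4 at 1.87 ± 0.32 (adjusted p = 0.00514) and Mill1 at 1.51 ± 0.19 (adjusted p = 0.000313). Il12rb2 was at 1.38 ± 0.20 (adjusted p = 0.00124), Myh2 at 1.33 ± 0.27 (adjusted p = 0.0195) and Fcrls at 1.20 ± 0.26 (adjusted p = 0.0302). The differences left at 24 h lay between -0.29 in Mill1 and 0.83 in Pdk4.

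Rhbdf2 changed sign, at 0.90 ± 0.12 (adjusted p = 0.000676), with a difference of 0.41 at 0 h and -0.49 at 24 h. Keratinocyte genes were Krt1 at 0.71 ± 0.17 (adjusted p = 0.0435), Krt23 at 0.67 ± 0.15 (adjusted p = 0.0339), and the basal keratin Krt15 at 0.78 ± 0.17 (adjusted p = 0.0298), which differed by -0.29 at 0 h and -1.08 at 24 h. Other genes with positive values were Defb1 at 0.84 ± 0.18 (adjusted p = 0.023), Lrat at 0.70 ± 0.15 (adjusted p = 0.023), the receptor regulator Lrig3 at 0.55 ± 0.10 (adjusted p = 0.0117), Cdh5 at 0.47 ± 0.10 (adjusted p = 0.0248) and Hspb1 at 0.38 ± 0.08 (adjusted p = 0.0308).

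Negative values were Adh6b at -1.17 ± 0.17 (adjusted p = 0.000998), Mmp3 at -1.14 ± 0.17 (adjusted p = 0.00162), Slc7a11 at -1.06 ± 0.21 (adjusted p = 0.0166), Aqp3 at -0.99 ± 0.14 (adjusted p = 0.00113), Il33 at -0.76 ± 0.15 (adjusted p = 0.0119) and Tll1 at -0.67 ± 0.13 (adjusted p = 0.0166). Mmp3, Slc7a11, Aqp3 and Il33, all lower in cub at 0 h, differed by 0.14, 0.33, 0.09 and 0.27 at 24 h.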

How the results depend on the processing

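Each value at 0 h was computed again under 16 alternatives. Rhbdf2 was called in all of them, at 0.38 to 0.44 with adjusted p from 0.00077 to 0.043. Of 177 named genes 147 were called, 54 of these in every alternative that tested them, and none of the 147 changed direction. Among the named genes that were not called, Hbegf, Frmd8, Adam8, Adam15, Erbb3 and Krt10, all within 0.08 of 0, changed sign in some alternatives, such as Hbegf at 0.05 with array weights and Adam8 at -0.13 without wild-type replicate 1. Over the mean of all rows, Adh6b differed by -0.91 in place of -1.60. Some genes that kept their call with each array left out lost it with the replicate number as a block in the 6 arrays. Among them were Errfi1, Elovl1, Lrat, Msmo1, Hspb1, Tek and Mrgprb3 (limma, adjusted p = 0.0555 to 0.0663). The Tek call was also lost with only the 6 arrays and no block (limma, adjusted p = 0.0553). The number of called genes was 1047, and it was 514 (310 higher, 204 lower) with only the 6 arrays at 0 h, 1804 (1089 higher, 715 lower) with array weights, and 322 to 957 with 1 array left out. With the replicate number as a block in the 6 arrays, 400 genes (286 higher, 114 lower) were called, and 800 with the block within time over all 23 arrays. The numbers do not pair the arrays by the labels. Deviations from the group means correlated at 0.067, 0.176 and 0.211 for numbers 1, 2 and 3, and each cub array correlated best with the wild-type array of its own number, a hint from the data and not from the design. Median-centring gave 1162, quantile normalization 1469 (787 higher, 682 lower), a filter at a level of 6, which left 13741 genes, 1227, trend and robust estimation 1092, no moderation 798, and the mean of all rows of a gene 1063. Distinct list members called were 156, against 93 with the replicate block in the 6 arrays and 74 to 143 with 1 array left out. Called neighbours of Rhbdf2 were 2, against 1 with the block, 1 in the window of 10 genes and 5 in the window of 50 genes. The 521 genes called also at a later time became 244 to 472 with 1 array left out. When the same sign was counted whatever its p, they became 1046 of 1047, but a same sign at any 1 later time sufficed. At single later times, 78.0% to 95.2% of the higher and 71.1% to 97.1% of the lower genes kept their sign. The share of all genes with a same sign at a later time was not computed. Fewer arrays leave a fit with less power by construction, and the cause of the other shifts was not tested. The tests of changes between times were added after the data were seen, and they were not repeated with arrays left out.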

Other observations

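Cub replicate 2 differed most from the other cub arrays in Alas2, the haem synthesis enzyme of red cell precursors, which was at 7.59, 9.72 and 7.70 in cub ears, against 7.22, 7.36 and 7.46 in wild-type ears. Tent5c and Nnat were also high in that array alone, at 8.60 against 6.99 and 7.01 in the other cub arrays, and at 9.94 against 7.68 and 8.76. The mean of the 4 erythroid genes was 7.43, 8.31 and 7.46 in cub ears, against 7.34, 7.42 and 7.46 in wild-type ears.

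The epidermal transcription factors had 3 of 18 genes higher in cub (16.7%, against 5.25% of all genes), and each call was lost without cub replicate 2. These were Prdm1 at 0.35 ± 0.10 (limma, adjusted p = 0.0463), Grhl3 at 0.28 ± 0.08 (limma, adjusted p = 0.0377) and Zfp750 at 0.24 ± 0.07 (limma, adjusted p = 0.0352). The list had no called gene without cub replicate 1, cub replicate 2, wild-type replicate 2 or wild-type replicate 3. Of 48 modulators of Wnt and BMP signalling 3 were higher and 1, Lypd6, was lower (8.33% called, against 5.25% of all genes). In this list 1 was higher without cub replicate 2, wild-type replicate 2 or wild-type replicate 3.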
